A study of Mus musculus with 29 samples.

Results

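Short H3K27me3 regions at promoters were examined in the embryonic mouse pallium, the dorsal part of the telencephalon that forms the cortex. Peaks of 8 H3K27me3 ChIP-seq libraries were merged where they overlapped, and merged regions with a peak in 2 or more libraries numbered 22220. Of these, 4374 (19.7%) were shorter than 10000 bp and lay within 2000 bp of the transcription start site (TSS) of a protein-coding gene, and these 4374 regions are described here. They were thus chosen by measured values, namely the presence and the extent of called peaks, and their length, recurrence and enrichment are given as a description without a test. The value of a region in a library was the highest fold enrichment over input of its peaks there, or 1 where no peak was called.

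H3K27me3 is trimethylation of lysine 27 of histone H3, deposited by the Polycomb repressive complex PRC2 and read by PRC1. It typically marks CpG-rich promoters of developmental genes that are silent or held at a low level in a given cell type. BAF complexes are ATP-dependent chromatin remodellers that can act in opposition to Polycomb, and BAF155 and BAF170 are scaffold subunits on which their assembly depends. In cortical development Polycomb marking is known for wide domains over homeobox genes, whereas the short regions treated here lie mostly at single promoters.

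All samples came from C57BL/6J mouse embryos at E17.5. In the double conditional knockout, dcKO, floxed Baf155 (Smarcc1) and Baf170 (Smarcc2) were deleted by hGFAP-Cre, whose promoter is active in pallial radial glia from mid-gestation, so that cells without Cre activity kept both genes. ChIP-seq was made from 4 control and 4 dcKO samples, each compared with 1 pooled input library of its genotype. RNA-seq was made from 4 control and 3 dcKO samples (numbered 2, 3 and 4) without treatment, and from 4 WT samples given vehicle, 4 dcKO samples given vehicle and 4 dcKO samples given a Wnt inhibitor. Nothing in the labels states whether samples of a group came from separate litters, and p-values measure the spread between these samples only.

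The promoters of 5 genes are shown because the results below turn on them. Egr4, Foxo1 and Lrp2 lay in 3 of the 10 regions with the highest mean enrichment among those marked in all 8 libraries, Prmt8 lay in a region with a peak in every dcKO and in no control library, and Crmp1 was the most highly expressed gene at a recurrent region. Each window runs 5′ to 3′ on the strand of the gene, from 250 bases before to 50 bases after the RefSeq start (GRCm38.p6), and CpG dinucleotides are in capitals. The windows are chr6:85513540-85513839 (minus strand) for Egr4, chr3:52268087-52268386 (plus strand) for Foxo1, chr2:69585980-69586279 (minus strand) for Lrp2, chr6:127769110-127769409 (minus strand) for Prmt8 and chr5:37241808-37242107 (plus strand) for Crmp1.
Egr4: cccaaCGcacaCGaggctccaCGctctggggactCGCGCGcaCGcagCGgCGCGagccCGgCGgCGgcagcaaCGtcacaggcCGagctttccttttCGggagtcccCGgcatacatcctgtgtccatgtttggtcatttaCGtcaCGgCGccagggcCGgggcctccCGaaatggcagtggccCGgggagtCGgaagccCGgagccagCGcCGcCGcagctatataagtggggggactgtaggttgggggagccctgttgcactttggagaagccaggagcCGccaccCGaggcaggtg
Foxo1: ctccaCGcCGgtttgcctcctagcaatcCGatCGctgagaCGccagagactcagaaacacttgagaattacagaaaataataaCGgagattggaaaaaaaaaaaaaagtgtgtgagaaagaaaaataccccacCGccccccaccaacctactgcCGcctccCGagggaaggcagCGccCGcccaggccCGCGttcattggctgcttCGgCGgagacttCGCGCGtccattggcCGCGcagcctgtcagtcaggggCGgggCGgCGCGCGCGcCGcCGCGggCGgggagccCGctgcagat
Lrp2: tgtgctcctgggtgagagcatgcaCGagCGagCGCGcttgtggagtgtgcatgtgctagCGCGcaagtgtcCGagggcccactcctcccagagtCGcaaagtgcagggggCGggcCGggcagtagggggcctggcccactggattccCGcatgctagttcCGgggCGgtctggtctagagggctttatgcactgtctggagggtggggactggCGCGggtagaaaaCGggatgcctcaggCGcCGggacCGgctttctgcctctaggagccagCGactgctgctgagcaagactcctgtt
Prmt8: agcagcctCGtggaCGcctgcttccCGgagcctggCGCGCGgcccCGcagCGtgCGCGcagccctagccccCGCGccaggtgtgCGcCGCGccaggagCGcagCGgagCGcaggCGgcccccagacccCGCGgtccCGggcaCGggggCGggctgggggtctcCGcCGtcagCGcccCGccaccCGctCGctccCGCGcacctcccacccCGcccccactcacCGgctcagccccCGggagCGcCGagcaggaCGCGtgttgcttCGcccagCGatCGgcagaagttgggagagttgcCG
Crmp1: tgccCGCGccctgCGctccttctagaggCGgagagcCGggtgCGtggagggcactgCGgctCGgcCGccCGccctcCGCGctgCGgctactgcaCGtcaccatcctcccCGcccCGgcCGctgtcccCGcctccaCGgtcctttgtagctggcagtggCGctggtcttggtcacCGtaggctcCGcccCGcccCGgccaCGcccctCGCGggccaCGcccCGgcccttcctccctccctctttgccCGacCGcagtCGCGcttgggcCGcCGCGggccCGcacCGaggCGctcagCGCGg
The Egr4 window held 30 CpG dinucleotides, the Foxo1 window 31, the Lrp2 window 20, the Prmt8 window 43 and the Crmp1 window 41. Relative to the number expected from base composition these counts were 0.876, 1.10, 0.652, 0.936 and 0.955.

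Tag duplication split the ChIP libraries. The fraction of tags left once duplicates were removed was over 30% in control 2, control 4, dcKO 3 and dcKO 4 and under 30% in control 1, control 3, dcKO 1 and dcKO 2, with a range of 12.3 to 66.5%. It was 32.8% in dcKO 4, close to the limit, and 61.5 to 66.5% in control 2, control 4 and dcKO 3. The libraries yielded between 6674 and 46000 peaks, and the RNA libraries held 11946658 to 28391046 counts. Pallial markers were abundant in every RNA library, with summed levels of 2481 to 3207 CPM in control and 1799 to 3275 CPM in dcKO samples. RNA of the deleted Smarcc1 was 247, 264, 269 and 248 CPM in control samples 1 to 4. It was 245 CPM in the library labelled dcKO 2, against 128 and 135 CPM in dcKO 3 and 4. It was 244 to 298 CPM in WT vehicle. Among vehicle-treated dcKO libraries 1 to 4 it was 136, 242, 133 and 138 CPM, and under the Wnt inhibitor it was 214, 252, 140 and 173 CPM. The libraries labelled dcKO 2, dcKO vehicle 2 and inhibitor 2 thus stood within or just below the control range of the targeted gene, and counts over all genes at the regions are given with and without each of them. Inhibitor 1 and inhibitor 4, at 214 and 173 CPM, lay between that range and the other dcKO libraries. The inhibitor and vehicle groups thus differed in remaining Smarcc1 RNA as well as in treatment, which cannot be told apart. The ChIP libraries offered no such check. In these bulk samples fewer cells of a type and less RNA per cell cannot be told apart.

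The regions were narrow and centred just inside the gene. Their median length was 2578 bp (quartiles 1363 and 4466 bp), against 1127 bp for short regions inside gene bodies and 986 bp for short regions outside genes. Together they covered 13.8 Mb and lay within 2000 bp of the start of 4475 of 21951 protein-coding genes. A single gene start lay within reach of 4092 regions, and 282 regions were near 2 or more. The TSS lay inside the region in 3264 cases (74.6%), and otherwise 440 regions ended upstream of it and 670 began downstream. Where the TSS was covered, the centre of the region was downstream of it in 2438 regions (74.7%), with a median offset of 358.5 bp. Such regions reached a median of 1078 bp upstream and 1925 bp downstream.

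**Figure D1:**
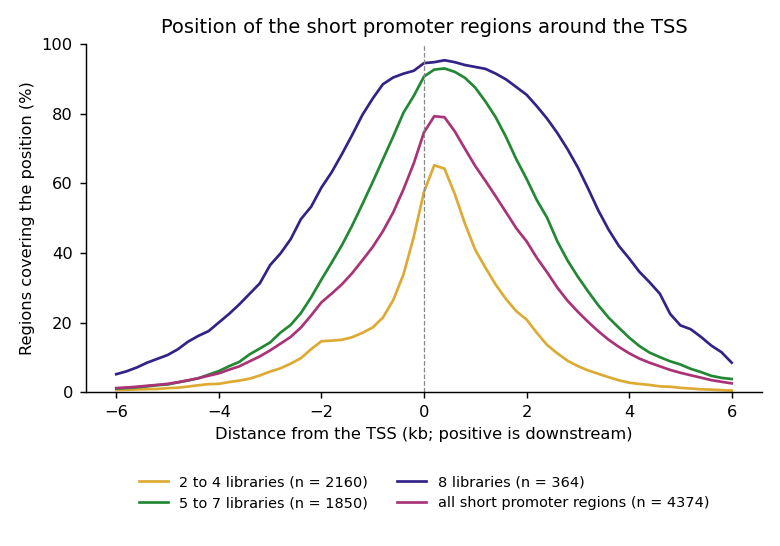
Share of short promoter regions (%) that covered each position around the TSS, against the distance from the TSS in kb, for all regions and for regions with a peak in 2–4, 5–7 or 8 libraries. Coverage of the TSS itself was 57.5%, 90.6% and 94.5% in the 3 groups, and at 2 kb downstream it exceeded that at 2 kb upstream in each of them.

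Recurrence across libraries set the regions apart from one another. A peak was present in all 8 libraries at 364 regions, in 7 at 503, in 6 at 917, in 5 at 430, in 4 at 477, in 3 at 744 and in 2 at 939. Regions with a peak in 6 or more libraries made up 40.8% of the short promoter regions, compared with 15.6% of all 22220 regions, 8.98% of short gene body regions, 4.88% of short regions outside genes and 90.0% of domains of 10000 bp or more. The median length was 1033 bp at regions found in 2 libraries and 6300 bp at regions found in 8, which in part follows from merging more peaks. The share that covered the TSS was 46.3% and 94.5%, respectively. The median fold enrichment where a peak was called was 3.82 and 5.34. Coverage at 2 kb downstream of the TSS, shown in the plot of position around the TSS, was 20.9% for regions with peaks in 2 to 4 libraries and 85.4% for those with peaks in all 8.

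Near the limits of the rule, the longest regions kept were those of Kcnj12 (9979 bp), Wnt2b (9979 bp) and Cabp7 (9970 bp), and the shortest left out were those of Cpeb1 (10026 bp), Hrh3 (10050 bp) and Neurog2 (10074 bp). The most distant starts kept were those of Uchl1 (2000 bp), Pgr15l (1998 bp) and Spo11 (1994 bp), while Zscan26 (2018 bp) and Procr (2019 bp) lay just beyond.

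In lists chosen with earlier results of these data known, lineage transcription factors lay mostly under wide domains and effector genes mostly at short regions. The shares of these lists are a description without a test. Of 63 transcription factors that specify lineages outside the telencephalon, 54 lay under domains of 10000 bp or more and 6 at short regions, namely Ascl2, Myod1, Phox2a, Prrx1, Sox18 and Tal2. Short regions marked 48 of 72 ion channel and neurotransmitter receptor genes (66.7%), 33 of 49 collagen and extracellular matrix genes (67.3%), 35 of 59 secreted ligands and antagonists (59.3%) and 34 of 62 axon guidance and adhesion genes (54.8%), whereas 20.4% of all protein-coding genes lay at one. Wide domains covered 7 of the channel genes, 2 of the matrix genes, 21 of the ligands and 2 of the guidance genes, and 2.51% of all protein-coding genes. The channel gene Grin1 and the ligand gene Fgf9 lay at both kinds of region and were counted in each. Pallial transcription factors were divided, with 16 of 34 at short regions, among them Tbr1, Cux1, Cux2, Bcl11b, Lhx2 and Sox9, and 14 under wide domains. Subpallial and GABAergic genes lay mostly under wide domains (19 of 28), and the 7 at short regions included Calb2, Drd1, Drd2, Gbx1, Npy and Sst. None of 16 housekeeping genes lay at either. Of 31 genes for PRC2 and PRC1 subunits and H3K27 demethylases, 8 lay at short regions (25.8%), a share near that of all protein-coding genes. They included Cbx2 and Cbx8, which encode chromodomain subunits of PRC1, and Cbx8 also lay at a wide domain. Of 14 cell cycle inhibitors and tumour suppressors, 3 were at short regions (Cdkn1c, Rassf1 and Trp73), and of 20 glial genes 8 were.

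Recurrence is given by list as a description. A peak in 6 or more libraries was found at 25 of the 35 ligand genes, at 31 of the 48 channel genes, at 21 of the 33 matrix genes and at 18 of the 34 guidance genes, and at 7 of the 16 pallial transcription factors (43.8%), compared with 40.8% of all short promoter regions. A peak in all 8 libraries was found at 7 channel genes (14.6%), 6 ligand genes (17.1%) and none of the 16 pallial transcription factors at short regions, compared with 8.32% of all short promoter regions. These differences were not tested. The median RNA level of the list members at short regions in control samples was 1.04 RPKM for ligands, 1.91 RPKM for matrix genes, 3.40 RPKM for channels and 20.1 RPKM for pallial transcription factors.

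Among regions marked in all 8 libraries the mean log2 enrichment was highest at Bmp6 (3.31) and Egr4 (3.26). Egr4 is an early growth response transcription factor gene (chr6:85508925-85518305, mm10), and its fold enrichment was 29.7, 6.51, 5.05 and 6.07 in control libraries 1 to 4 and 36.4, 3.83, 5.64 and 15.7 in dcKO libraries 1 to 4. The highest values came from control 1 and dcKO 1, and the groups overlapped. Egr4 RNA was low, at 0.0589 RPKM in control samples. The 10 regions with the highest means also included those of Cxcl14, Gbx1, Hapln4 and Kcnk9, and the library with the highest value was dcKO 1 at 8 of them. Control and dcKO values overlapped at all 10.

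Bmp6, which encodes a secreted TGF-beta family ligand, carried 12.4, 5.77, 12.1 and 5.29 in controls and 16.4, 19.5, 5.34 and 12.1 in dcKO libraries (chr13:38343808-38349833). The means were 8.90 ± 3.89 and 13.4 ± 6.15 (SD, 4 libraries each), and the log2 difference of 0.54 ± 0.49 (SE) did not pass the test (limma, unadjusted p = 0.264). Foxo1, a forkhead transcription factor gene of insulin signalling, carried 11.4, 4.36, 10.2 and 4.61 in controls and 17.98, 15.8, 4.34 and 6.98 in dcKO libraries (chr3:52266409-52271568). At both regions the controls with few tags kept, control 1 and control 3, were higher than control 2 and control 4. Lrp2, which encodes the endocytic receptor megalin, carried 12.9, 4.37, 15.5 and 4.28 in controls and 9.68, 12.3, 4.82 and 10.1 in dcKO libraries (chr2:69582346-69590371). The groups overlapped here as well. Trp73, which encodes the p53 family protein p73 found in Cajal-Retzius cells, carried 19.6, 6.05, 5.53 and 5.53 in controls and 20.0, 5.93, 5.95 and 9.92 in dcKO libraries (chr4:154133186-154142196). The start of Wrap73 also lay within 2000 bp of this region.

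**Figure D2:**
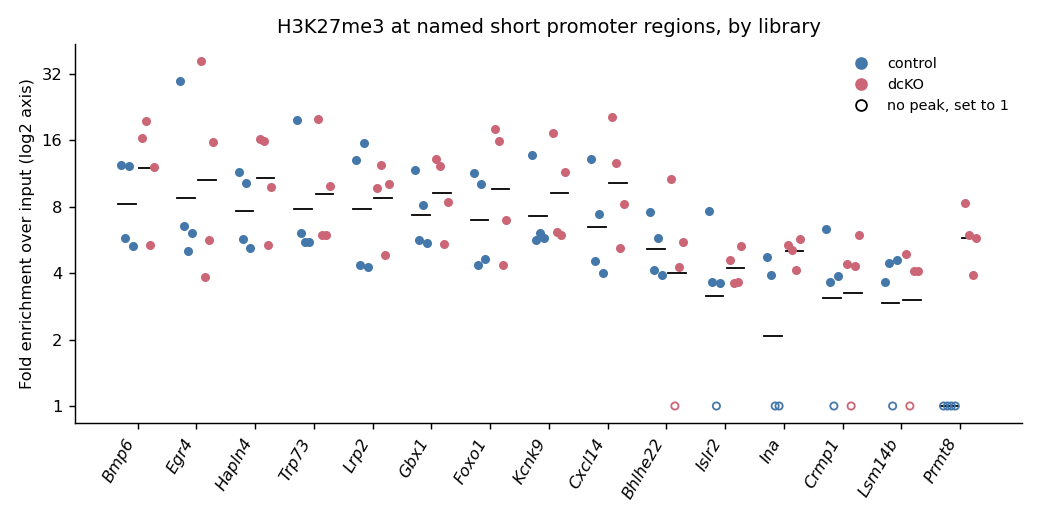
Highest fold enrichment over input (log2 axis) of named short promoter regions in each of 4 control and 4 dcKO libraries, with the geometric mean as a bar and open points at 1 where no peak was called. Among the regions shown, the groups were separate at Prmt8, which had no peak in any control library and values of 3.92 to 8.32 in the dcKO libraries.

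Recurrent regions were also present at genes with high RNA levels in the pallium. Among genes at regions with peaks in 6 or more libraries, the highest RNA level was that of Crmp1, a cytosolic phosphoprotein of semaphorin signalling, at 259 ± 4.85 RPKM (SD over 4 control samples). Its region (chr5:37239627-37246386) carried 6.34, 3.63 and 3.87 in controls 1, 2 and 4 and 4.38, 4.32 and 5.97 in dcKO 1, 3 and 4, with no peak in control 3 and dcKO 2. The next were Islr2, a neuronal leucine-rich repeat membrane protein (172 ± 16.5 RPKM), Ina, the neurofilament protein alpha-internexin (164 ± 4.36 RPKM), and Lsm14b, an RNA-binding protein (106 ± 5.03 RPKM). The Lsm14b region lay 1287 bp from the TSS. Bhlhe22, a transcription factor of post-mitotic pallial neurons (89.8 ± 14.5 RPKM), carried 7.52, 4.12, 5.74 and 3.94 in controls and 10.7, 4.26 and 5.56 in dcKO 1, 3 and 4, with no peak in dcKO 2. Whether mark and RNA came from the same cells cannot be told from bulk tissue.

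The share of short promoter regions with a peak differed more between libraries than between genotypes. It was 75.6, 66.7, 22.7 and 54.5% in control libraries 1 to 4 and 70.9, 18.98, 56.2 and 94.1% in dcKO libraries 1 to 4. The means were 54.9 ± 23.1% and 60.04 ± 31.5% (SD, 4 libraries each), and over all regions they were 41.0 ± 17.3% and 43.9 ± 22.4%. The difference of the means was well within the spread of either group. Among libraries with over 30% of tags kept the mean was 60.6% in control and 75.1% in dcKO, and among those with under 30% it was 49.1% and 45.0%. The 75.1% was the mean of 56.2% in dcKO 3 and 94.1% in dcKO 4. Leaving out single libraries moved the difference of the group means between −6.25 and 18.9 percentage points. Over the short promoter regions the log2 values of control 4 and dcKO 3 correlated at 0.77, those of control 2 and control 4 at 0.76 and those of control 1 and dcKO 1 at 0.70, while control 3 and dcKO 2, the libraries with the fewest of these regions, correlated at 0.48. These correlations are across regions, which share the library's depth and are not replicates.

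**Figure D3:**
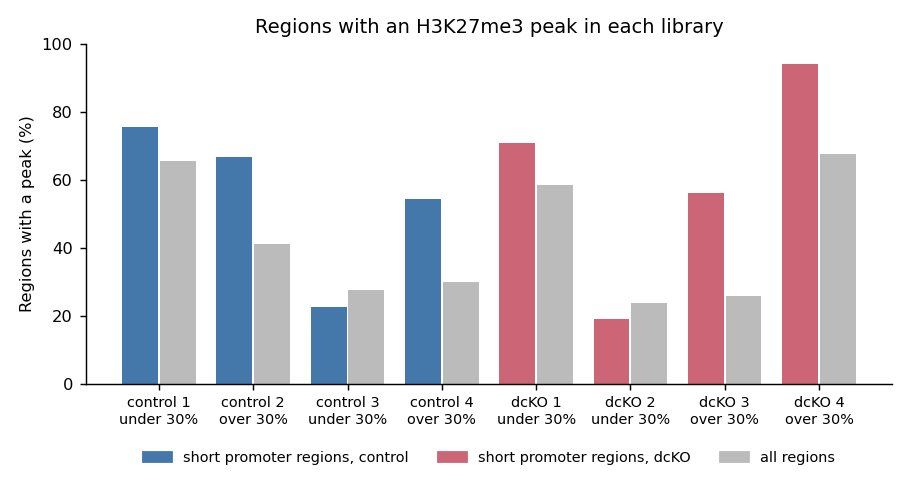
Share of the 4374 short promoter regions (coloured bars) and of all 22220 regions (grey bars) with a peak in each H3K27me3 library, with the class of the library by share of tags kept. The share of short promoter regions ranged from 22.7 to 75.6% in control and from 18.98 to 94.1% in dcKO libraries.

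H3K27me3 at the short promoter regions was compared between dcKO and control, the question being whether loss of BAF complexes changed the mark there. At an unadjusted p under 0.01 (limma), 1 region was higher in dcKO and none was lower, while 0.009% of all 22220 regions were called higher and 0.0% lower. No region passed after adjustment over all regions, and at an unadjusted p under 0.05 there were 6 higher (0.137%) and 0 lower, against 0.198% and 0.0225% of all regions. Regions marked in 1 genotype alone entered the set through that genotype, so these counts describe the regions and support no difference. The mean log2 value was higher in dcKO at 3202 regions (73.2%), compared with 59.8% of all regions, and the median difference was 0.20 against 0.05. This share depended on single libraries. It was 42.4% without control 3, 49.1% without dcKO 4 and 90.8% without dcKO 2, while over all regions it was 41.6%, 57.6% and 76.4%. Among libraries with over 30% of tags kept 87.1% of the regions were higher in dcKO (58.3% of all regions), and among those with under 30% the share was 39.8% (35.5% of all regions). Each class held 2 libraries of each genotype. In the first class dcKO 4 kept the fewest tags (32.8%) and had the most peaks (46000), so the libraries were not matched in quality. Fold enrichment of dcKO libraries did not overlap that of control libraries at 12 regions, all higher in dcKO (0.274%), whereas 0.18% of all regions were separated in this direction and 0.0315% in the other.

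The region that passed the unadjusted limit lay at Prmt8, which encodes a neuronal, membrane-anchored arginine methyltransferase (chr6:127765389-127772018). No peak was called in any of the 4 control libraries. In dcKO libraries 1 to 4 the fold enrichment was 8.32, 5.96, 3.92 and 5.73. The region was thus chosen through its dcKO peaks alone, and these values are a description without a test. It was the sole region with peaks in 4 libraries all of which were dcKO. Prmt8 was expressed in the control pallium at 17.9 ± 2.37 RPKM (SD, 4 samples). Its RNA was 54.2, 54.2, 41.7 and 44.7 CPM in control samples and 45.1, 30.6 and 31.7 CPM in dcKO 2, 3 and 4, so that dcKO 2 lay within the control range and the other dcKO samples below it. The log2 difference was −0.46 ± 0.15 (adjusted p = 0.215), and without dcKO 2 it was −0.65 (adjusted p = 0.00589). In vehicle-treated samples 1 to 4 Prmt8 RNA was 47.0, 51.8, 34.5 and 43.7 CPM in WT and 25.5, 42.5, 25.5 and 26.4 CPM in dcKO, a log2 difference of −0.56 ± 0.23 (adjusted p = 0.455). Without dcKO vehicle 2 it was −0.78 (adjusted p = 0.0776).

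Separated values were also seen at regions of Chrd, Dab1, Galr2, Gchfr, Gpr37, Igfbp5, Kitl, Npffr2, Wnt2, Krtap5-3 and Duxf3. The last 2 belong to multigene families, and tags there may stem from related copies. Gpr37, an orphan receptor gene of glia and neurons, had no peak in control 1 and control 3, 3.05 and 2.98 in control 2 and control 4, and 8.30, 8.07, 3.65 and 5.03 in dcKO libraries. Kitl, which encodes stem cell factor, carried 3.72 and 3.55 in control 1 and control 2, no peak in the other controls and 4.82, 6.45, 3.99 and 4.99 in dcKO libraries. Kitl RNA was 208, 157, 198 and 211 CPM in control samples and 198, 95.1 and 112 CPM in dcKO 2, 3 and 4, again with dcKO 2 inside the control range. The log2 difference was −0.53 ± 0.25 (adjusted p = 0.367), and without dcKO 2 it was −0.90 (adjusted p = 0.00205). In dcKO vehicle against WT vehicle it was −0.61 (adjusted p = 0.585), and without dcKO vehicle 2 it was −0.88 (adjusted p = 0.173). Dab1, the Reelin signalling adaptor gene with a control RNA level of 46.2 RPKM, carried 3.68 and 3.48 in control 2 and control 4 and 4.62, 3.85, 3.72 and 7.50 in dcKO libraries. Its RNA was 363, 354, 376 and 367 CPM in control samples and 403, 300 and 327 CPM in dcKO 2, 3 and 4, a log2 difference of −0.09 (adjusted p = 0.678) and, without dcKO 2, of −0.22 (adjusted p = 0.0380). The other genes of separated regions with enough counts had RNA differences of 0.26 (Chrd), −0.06 (Gpr37), −0.11 (Igfbp5) and −0.34 (Galr2), and none passed after adjustment.

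RNA levels, which the choice of regions did not use, were lower the more libraries shared the mark. The median level of genes at short promoter regions in control samples was 0.34 ± 0.08 on the log2(RPKM + 0.1) scale (SD over 4 samples, 4393 genes in the count table). It was 1.30 ± 0.02 for genes at no region and −2.25 ± 0.12 for genes under domains of 10000 bp or more. Genes at regions found in 2, 3, 4, 5, 6, 7 and 8 libraries had medians of 1.27, 1.24, 0.66, 0.34, −0.10, −0.36 and −0.85, with SDs between samples of at most 0.12. Neighbouring classes differed by more than these SDs except for 2 and 3 libraries. Genes whose TSS was covered had a median of 0.08, and genes whose TSS lay outside the region had a median of 1.32. Among genes with enough counts to be tested these medians were 1.004 and 2.305, and that of genes at no region was 3.06. More than 1 RPKM was reached by 52.1% of genes at short promoter regions, by 28.6% of genes under wide domains and by 56.1% of genes at none. The median over genes at short promoter regions was 0.24 ± 0.06 in dcKO samples, 0.37 ± 0.12 in WT vehicle, 0.29 ± 0.04 in dcKO vehicle and 0.28 ± 0.08 in dcKO Wnt inhibitor samples.

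**Figure D4:**
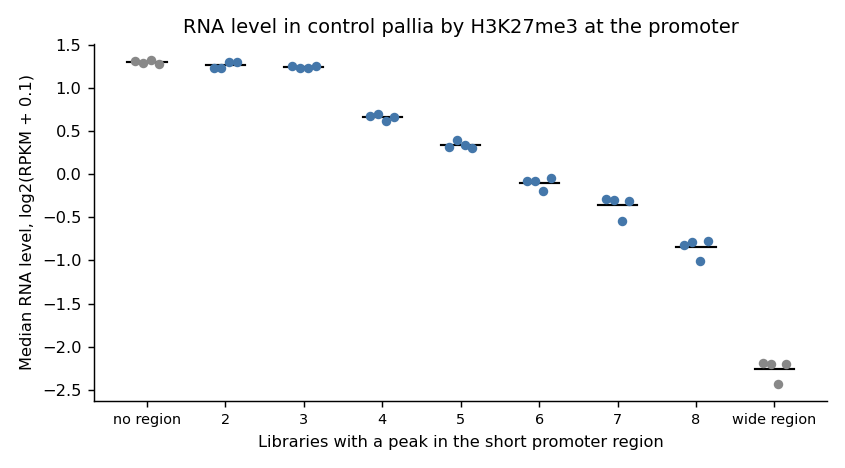
Median RNA level, log2(RPKM + 0.1), of protein-coding genes in each of 4 control samples (points) with the mean (bar), for genes at no region, at short promoter regions by the number of libraries with a peak, and under domains of 10000 bp or more. The mean of the medians was 1.27 for regions found in 2 libraries, −0.85 for regions found in 8 and −2.25 under wide domains.

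Of the 4475 genes at short promoter regions, 3368 had enough counts to be tested in the untreated samples and 3399 in the treated ones. In untreated dcKO against control, an unadjusted p under 0.01 (edgeR quasi-likelihood) was found for 111 higher (3.30%) and 200 lower genes (5.94%), while among all 15770 genes tested 2.66% were higher and 2.8% lower. No gene at these regions passed after adjustment in edgeR, and 1 of all genes did, whereas DESeq2 called 86 higher (2.06%) and 140 lower (3.35%), against 0.952% and 1.09% of all genes. An unadjusted p under 0.05 (edgeR) was found for 273 genes on the higher and 526 on the lower side. The share of all genes at this limit was not counted, so these numbers stand without a comparison. The median log2 difference was −0.08, compared with 0.00 over all genes. Without the library labelled dcKO 2, 273 genes (7.99%) rose and 440 (12.9%) fell at an adjusted p under 0.05, against 5.57% and 6.88% of all genes tested. With all libraries kept, the share that was lower at an unadjusted p under 0.01 (edgeR) was also taken by position and recurrence. This share was 6.52% where the TSS was covered, 4.09% where it lay outside the region, 2.69% under wide domains and 2.05% at no region. The same share showed no trend with recurrence, at 5.78%, 6.78% and 5.64% for regions found in 2 to 3, 4 to 5 and 6 to 8 libraries.

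In dcKO vehicle against WT vehicle, 92 genes (2.71%) were higher and 106 (3.12%) lower at the unadjusted limit, compared with 1.56% and 1.29% of all 16372 genes tested. None passed after adjustment in edgeR, and DESeq2 called 32 higher (0.752%) and 17 lower (0.399%), against 0.268% and 0.109% of all genes. An unadjusted p under 0.05 (edgeR) was found for 202 genes on the higher and 403 on the lower side, again without a share over all genes. Without dcKO vehicle 2, 94 genes (2.74%) rose and 153 (4.46%) fell at an adjusted p under 0.05, against 1.34% and 2.06% of all genes. The untreated and the vehicle samples did not give independent values, as libraries with the same genotype and number deviated together from their group means (r of 0.83 to 0.90 in dcKO and 0.15 to 0.65 in control or WT, across 11258 genes). In dcKO Wnt inhibitor against dcKO vehicle, 77 genes (2.27%) were higher and 84 (2.47%) lower at the unadjusted limit, close to the 2.44% and 2.2% of all genes tested. After adjustment 6 (0.177%) were higher and 0 lower, against 0.0428% and 0.0122% of all genes, while DESeq2 called 41 in each direction (0.963%), against 0.597% and 0.498%. Without dcKO vehicle 2 the numbers were 36 (1.05%) and 32 (0.933%), against 0.635% and 0.454%. Without inhibitor 2 the balance turned, with 21 higher (0.610%) and 68 lower (1.98%), against 0.86% and 1.67% of all genes. This comparison and the former share the dcKO vehicle samples.

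**Figure D5:**
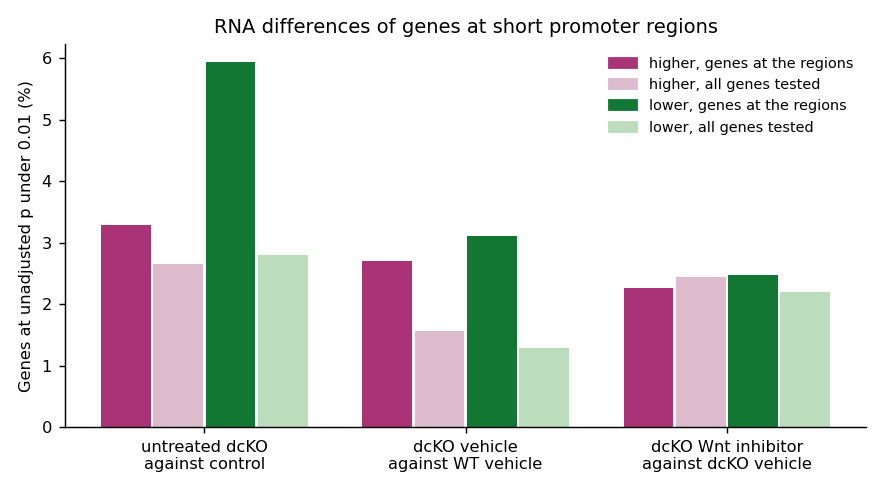
Share of tested genes (%) with an unadjusted p under 0.01 (edgeR quasi-likelihood), by direction, in each of 3 RNA comparisons, for genes at short promoter regions and for all genes tested. In untreated dcKO against control 5.94% of genes at the regions were lower, compared with 2.8% of all genes.

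Secreted ligands and antagonists that differed in untreated dcKO were all higher at the unadjusted limit. Of the 32 tested members of this list at short promoter regions, 7 were higher (21.9%) and 0 lower, with a list median of 0.10. At this limit 3.30% of genes at the regions were higher and 5.94% lower, and of all genes tested 2.66% and 2.8%. The 7 ligand genes were Dkk1, Dkk2, Sfrp1 and Sfrp2, which encode extracellular Wnt antagonists, Rspo2, which encodes a Wnt potentiator, Wnt2b, a Wnt ligand, and Bmp3. Dkk1 RNA was 0.042, 0.0886, 0.0356 and 0.181 CPM in control samples and 1.17, 0.605 and 1.61 CPM in dcKO 2, 3 and 4. All 3 dcKO samples were above all controls, at few counts, and the log2 difference was 3.67 ± 0.55 (adjusted p = 0.0801; without dcKO 2 adjusted p = 0.00309). Sfrp1 was 135 ± 14.97 CPM in control (range 124 to 157) and 226 ± 33.4 CPM in dcKO (range 188 to 248; adjusted p = 0.0801). Wnt2b was 4.39 ± 0.716 CPM in control and 10.2 ± 4.08 CPM in dcKO (ranges 3.52 to 5.23 and 5.54 to 12.9; adjusted p = 0.125). Without dcKO 2, 10 ligand genes rose (31.2%) and 6 fell (18.8%) at an adjusted p under 0.05, against 7.99% and 12.9% of genes at the regions. In dcKO vehicle against WT vehicle 7 were higher (21.9%) and 1, Sfrp5, was lower at the unadjusted limit, against 2.71% and 3.12% of genes at the regions. Dkk1, Rspo2, Sfrp1, Sfrp2 and Wnt2b were again among the 7. Without dcKO vehicle 2, 4 rose and 4 fell (12.5% each, adjusted p under 0.05), against 2.74% and 4.46% of genes at the regions.

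None of the 7 ligand genes higher in untreated dcKO lay at a region whose H3K27me3 values separated the genotypes. Chrd and Wnt2 of the ligand list lay at such regions and were not among the 7. The Dkk1 region (chr19:30545392-30554797) carried 3.38, 4.93, 3.66 and 4.73 in controls and 3.72, 4.79, 5.06 and 7.47 in dcKO libraries, and its log2 difference was 0.31 ± 0.74 (unadjusted p = 0.682). Over the 3368 tested genes the differences in RNA and in H3K27me3 correlated at −0.08 (Spearman), a description across genes.

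Of 45 tested ion channel and receptor genes, 0 were higher and 4 lower (8.89%) in untreated dcKO at the unadjusted limit (list median −0.20), among them Gabrb2 and Grin2a, which encode GABA and NMDA receptor subunits, and the potassium channel gene Kcna6. Without dcKO 2, 3 of 46 channel genes rose (6.52%) and 6 fell (13.04%) at an adjusted p under 0.05, close to the 7.99% and 12.9% of all genes at short promoter regions. Among 33 axon guidance and adhesion genes, Ephb1 and Robo3 were higher (6.06%) and Cdh20, Epha8, Slit1, Unc5a and Unc5d lower (15.2%) at the unadjusted limit, compared with 3.30% and 5.94% of all genes at the regions. Without dcKO 2, 7 rose (21.2%) and 8 fell (24.2%) at an adjusted p under 0.05. Robo3, which encodes an axon midline-crossing receptor, was at 2.56, 2.04, 1.28 and 2.35 CPM in control samples and at 1.51, 27.02 and 19.4 CPM in dcKO 2, 3 and 4. The value of dcKO 2 was thus within the control range. The log2 difference was 3.003 ± 0.77 (adjusted p = 0.159), and without dcKO 2 it was 3.51 (adjusted p = 1.53e-05). In vehicle-treated samples Robo3 was 4.34, 2.97, 2.07 and 3.75 CPM in WT and 32.7, 2.89, 30.7 and 23.6 CPM in dcKO, and again the second library was at the WT level. The log2 difference was 2.75 ± 0.66 (adjusted p = 0.233), and without dcKO vehicle 2 it was 3.11 (adjusted p = 0.00557). The Robo3 region (chr9:37431142-37436056) carried 8.34, 5.48, 4.13 and 5.39 in controls and 10.1, 5.52, 4.94 and 7.92 in dcKO libraries.

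Of 32 matrix genes, Adamts1 and Col2a1 were higher and Col12a1, Fn1 and Lamb1 lower in untreated dcKO at the unadjusted limit (6.25% and 9.38%, list median −0.24). Of all genes at the regions 3.30% were higher and 5.94% lower at this limit. Without dcKO 2, 6 of 33 rose (18.2%) and 8 fell (24.2%) at an adjusted p under 0.05. In that fit 7.99% and 12.9% of genes at the regions and 5.57% and 6.88% of all genes tested did so. The 6 endothelial and pericyte markers, all detected, summed to 239 to 280 CPM in control and 212 to 238 CPM in dcKO samples, and to 244 to 262 CPM in WT vehicle and 203 to 223 CPM in dcKO vehicle, without overlap in either experiment. The 5 meningeal fibroblast markers, all detected, summed to 11.5 to 42.6 CPM in control and 11.2 to 17.3 CPM in dcKO samples, and the part of either set in the result was not tested. Nr2f1 and Sox9 were the 2 pallial transcription factor genes, out of 16, that were higher, and none was lower at the unadjusted limit. Without dcKO 2, 3 of 16 rose and 5 fell at an adjusted p under 0.05, against 7.99% and 12.9% of genes at the regions. In dcKO vehicle without dcKO vehicle 2, 0 of 16 rose and 4 fell at this limit. Of genes at the regions 2.74% and 4.46% did so in the vehicle fit, and of all genes tested 1.34% and 2.06%. Sox9 was 34.2 ± 2.296 CPM in control and 45.0 ± 2.80 CPM in dcKO (ranges 32.3 to 37.2 and 42.1 to 47.7; adjusted p = 0.107, and 0.00675 without dcKO 2). Of the highly expressed genes named above, Ina was lower, at 541, 520, 515 and 544 CPM in control and 477, 426 and 436 CPM in dcKO 2, 3 and 4 (log2 difference −0.25 ± 0.06, unadjusted p = 0.00249, adjusted p = 0.143).

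Over all genes at short promoter regions, those with the smallest p-values among the ones that did not overlap between groups were Ptx3, Aass, Pls1, Dkk1 and Gli1, all higher, and Rgs8, Mtus2, Mmp15, Frem2 and Emp2, all lower in untreated dcKO. Ptx3, which encodes a secreted pentraxin of innate immunity, was 18.9, 17.9, 21.9 and 21.0 CPM in control and 39.4, 63.2 and 65.1 CPM in dcKO 2, 3 and 4 (log2 difference 1.49 ± 0.16, adjusted p = 0.056). Gli1, a transcription factor and target of Hedgehog signalling, was 8.48, 8.28, 8.57 and 7.18 CPM in control and 12.1, 17.2 and 19.05 CPM in dcKO samples (0.997 ± 0.15, adjusted p = 0.0801). In dcKO 2 both genes also exceeded every control, which the choice of genes without overlap between groups required. Rgs8, a regulator of G protein signalling, was 49.0, 50.4, 49.0 and 43.4 CPM in control and 32.3, 32.6 and 34.7 CPM in dcKO samples (−0.53 ± 0.07, adjusted p = 0.0749). The Gli1 region (chr10:127339390-127342746) had peaks in 3 libraries of each genotype.

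Under the Wnt inhibitor the 6 genes that passed adjustment were Sfrp5, Sox8, Foxp1, Syt6, Aebp1 and Strip2, all higher than in dcKO vehicle. Strip2 fell outside the rule for named genes and is named because the number is small (1.65 ± 0.27, adjusted p = 0.0479). Sfrp5, a secreted Wnt antagonist, was 0.451, 0.445, 0.609 and 0.373 CPM in dcKO vehicle and 2.51, 2.24, 1.505 and 1.95 CPM in inhibitor samples 1 to 4 (2.103 ± 0.25, adjusted p = 0.0194). The adjusted p exceeded 0.05 without dcKO vehicle 1, 3 or 4, inhibitor 4 or WT vehicle 2 (0.0524 to 0.162), and the other 4 named genes lost the call in a similar way. In WT vehicle it was 1.25 ± 0.259 CPM, between the dcKO groups. Sox8, a SoxE transcription factor of glial lineages, was 18.4, 21.8, 16.8 and 17.9 CPM in vehicle and 32.4, 35.0, 35.3 and 35.0 CPM in inhibitor samples (0.88 ± 0.12, adjusted p = 0.0263). Foxp1, a forkhead factor of cortical neurons, was 93.2 ± 11.4 and 158 ± 12.7 CPM (0.76 ± 0.11, adjusted p = 0.0263). Aebp1, a matrix-associated protein, was 0.834 ± 0.256 and 4.60 ± 1.84 CPM. The 5 choroid plexus markers, all detected, summed to 5.25 to 8.44 CPM in vehicle and 5.73 to 837 CPM in inhibitor samples. The 7 subpallial and interneuron markers summed to 477 to 821 CPM in vehicle and 703 to 913 CPM in inhibitor samples, ranges that overlapped. The part of either set in these differences was not tested. Inhibitor 1, 2 and 4 also held more Smarcc1 RNA than dcKO vehicle 1, 3 and 4, and the part of this was not tested either. At the unadjusted limit the ligand list had 2 genes higher (Fgf3 and Sfrp5, 6.25%) and 1 lower (Wnt2b). The channel list had 3 lower (Grin3a, Kcna2 and Kcna3, 6.52%) and 0 higher. The subpallial and GABAergic list had 2 of 7 higher (Drd2 and Npy, 28.6%) and 0 lower. Of all genes at the regions 2.27% were higher and 2.47% lower at this limit.

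Promoter sequence was described from 500 bases before to 500 bases after the annotated TSS. The median ratio of observed to expected CpG was 0.613 at genes with short regions, 0.656 under wide domains and 0.488 at genes with no region, and the median GC content of the first and last was 58.7% and 53.1%. The lower quartile differed more, at 0.429 for genes with short regions against 0.185 for genes with none, so that CpG-poor promoters were rarer at the regions. A GC content over 50% with a CpG ratio over 0.6, a usual definition of a CpG island, was met by 51.3% of genes at short regions, 60.5% under wide domains and 42.0% at no region. By recurrence the median ratio was 0.547 at regions found in 2 libraries and 0.645 at regions found in 8. RefSeq windows of 300 bases were matched for 2868 of the 4475 genes (64.1%), too few for a comparison over the set. In the matched windows TATAAA, read on both strands, was present in 8.68% and CCAAT in 33.6%. Over all 13824 matched protein-coding genes the shares were 11.3% and 39.1%, and over all 32851 RefSeq windows 13.6% and 37.4%. These values are a description without a test.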

How the data were processed

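The authors mapped ChIP-seq reads to mm10 and called broad H3K27me3 peaks with MACS2 2.1.0.20140616, library by library, with the pooled input of that genotype as background. Per the file headers the q-value limit was 0.1, and the deposited peak tables give pileup, fold enrichment and −log10 of p and q. For RNA-seq the authors mapped reads with STAR and deposited raw counts per gene, made with featureCounts from a kit that does not mark strand, so that reads of overlapping or antisense genes cannot be told apart.

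Here peaks overlapping by at least 1 bp were merged, and starts were those of protein-coding gene records of GENCODE (M21 on GRCm38, the same assembly as mm10). The highest fold enrichment per region and library was log2-transformed, with 1 where no peak was called, and compared with limma 3.58.1 (trend, robust) over all 22220 regions. Counts were tested with edgeR 4.0.16 (R 4.3.3; filterByExpr, TMM, robust quasi-likelihood), and p-values were adjusted by Benjamini-Hochberg over all regions or genes tested. Untreated and treated samples were fitted separately, with the 3 treated groups in 1 fit. CPM used TMM library sizes. RPKM was CPM per kb of union exon length, and 0.1 was added before logarithms. Groups came from sample titles. No count lay in rows that name no gene.

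Both tests were tried on simulated data. The limma step recovered 193 of 200 regions changed by a log2 value of 2 among 22220 (8 false calls). Measured log2 differences of 1.77 ± 0.88 (SE) at the Gpr37 region and 2.53 ± 0.90 at the Prmt8 region did not pass after adjustment. Recovery at regions with an SE of this size was not tested. The edgeR step recovered 146 of 200 genes changed by a log2 value of 1 among 15556 (10 false calls) for the untreated and 142 of 200 among 16192 (6 false calls) for the treated design.

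The members and gene lists were chosen with earlier results of these data known. Named regions were the 10 with the highest mean log2 enrichment in all 8 libraries, those separated between genotypes, the 5 genes with the highest RNA level at regions found in 6 or more libraries and the leading members of each list, and a few items are not reported here. Named genes were those passing adjustment or, where none did, the 5 smallest p-values per direction without overlap of groups and with a mean count of at least 10. Alternatives comprised other limits, values, scalings, filters, DESeq2 1.42.0, a replicate block and leaving out each library.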

Additional observations from a re-analysis of the deposited data

Results flagged for a closer look

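In 63 groups of 4 samples, 8 held a sample far from the others by Dixon's criterion at the 95% level. Chance flags about 1 in 20 groups, and the values are given without an explanation.

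At the Egr4 region control 1 reached 29.7 against at most 6.51 in the other controls, at the Trp73 region it reached 19.6 against at most 6.05, and at the Kcnk9 region it reached 13.6 against at most 6.08. All 3 values came from control 1, which kept under 30% of its tags.

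In vehicle-treated dcKO samples, sample 2 had 242 CPM of Smarcc1 and 691 CPM of Smarcc2, while the others had 133 to 138 CPM and 425 to 439 CPM. The median log2(RPKM + 0.1) of genes at short promoter regions had a low sample at 0.22 among the untreated controls and at 0.19 among WT vehicle samples. Sox8 was 32.4 CPM in 1 inhibitor sample, below the 35.0 to 35.3 CPM of the other 3, a gap that was small in size.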

How the results depend on the processing

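At an unadjusted p under 0.01 (limma), 4 of 4374 short promoter regions were higher in dcKO with pileup as the value. Over all 22220 regions 13 were. With peaks of q under 0.01 the number was 0 of 3457 (1 of all 13484 regions). Leaving out single libraries moved it between 0 and 4, and the number lower between 0 and 1. The 4 arose without control 1, where 19 of all 17081 regions were higher. The 1 lower arose without dcKO 1, where 1 of all 18072 regions was lower. In the fits without single libraries the number of regions was 3700 to 4334. The difference in the share with a peak was then −6.25 to 18.9 percentage points. The median RNA level was 1.11 with a pseudocount of 1, 1.35 over genes passing filterByExpr and 0.33 to 0.38 without single controls. The CpG ratio was 0.613 within 500 bases of the start and 0.595 in the 300-base genome window, the latter chosen after seeing the data.

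DESeq2 called 86 genes higher and 140 lower after adjustment in untreated dcKO, 32 and 17 in dcKO vehicle, and 41 and 41 under the inhibitor. At the unadjusted limit it gave 174 lower in dcKO vehicle and 143 lower under the inhibitor. Without a filter on low counts 29 were higher and 37 lower in untreated dcKO and 2 lower under the inhibitor. With replicate number as a block, 52 were higher and 68 lower at the unadjusted limit in untreated dcKO, 187 lower in dcKO vehicle with 1 higher after adjustment, and 127 lower under the inhibitor. Same-numbered samples of the compared groups did not deviate together in a consistent way (r of −0.32 to 0.58 in ChIP and −0.31 to 0.38 in RNA). The samples numbered 1 gave the 0.58 in ChIP and, in dcKO vehicle against WT vehicle, the 0.38. The numbers were not read as pairing.

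Leaving out single libraries moved the adjusted counts higher and lower to 0–273 and 0–440 in untreated dcKO, 0–94 and 0–153 in dcKO vehicle and 0–36 and 0–68 under the inhibitor. The unadjusted ones moved to 52–313 and 61–498, 46–181 and 29–311, and 47–171 and 41–210. The highest unadjusted counts arose without sample 2 of dcKO or dcKO vehicle. In those fits 1055 and 1291 of all 16024 genes were higher and lower in untreated dcKO. Of all 16526 genes, 481 and 714 were in dcKO vehicle, and 658 and 587 under the inhibitor. The highest adjusted counts were reached without sample 2 of dcKO or dcKO vehicle, except that the 68 lower under the inhibitor (with 21 higher) arose without inhibitor sample 2. The 10 genes named in untreated dcKO kept their direction and stayed past the unadjusted limit in all 11 alternatives. Sfrp5 lost its adjusted call in 5 of 16, Aebp1, Foxp1 and Syt6 in 7 and Sox8 in 8, each time without 1 library. The cause was not tested. Under 30% of tags kept in 4 libraries limits what single regions can show.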
